A study of Rattus norvegicus with 22 samples.

Results

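The Acot genes encode acyl-CoA thioesterases, the enzymes that split an acyl-CoA into a free fatty acid and coenzyme A. The genes described are 8 of them, Acot1, Acot2, Acot3, Acot4, Acot7, Acot8, Acot12 and Acot13, found by their gene name on the array, out of 26276 gene names. They are covered by 10 probes, and all 8 genes passed the filter on dim probes. The family was selected on the diet difference of Acot1 in these same arrays, so the levels of Acot1 by diet are a description without a test.

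Liver RNA of 22 male Sprague–Dawley rats was hybridised to Agilent 2-colour arrays, 1 array per rat, beside a common reference made from the RNA of healthy rats aged 10 weeks outside the experiment. CD 3 and BD 3 (n = 5 each) are rats fed for 3 months, and CD 14 and BD 14 (n = 6 each) are rats fed for 14 months, so age and length of feeding cannot be told apart. Both diets were semi-synthetic. The control diet (CD) held lard as its main fat. In the diet enriched with biologically active substances (BD), salmon fat took the place of most of the lard, rapeseed oil was raised, and a hydrolysed linden flower extract, pumpkin puree and probiotic bacteria (a Lactobacillus acidophilus and a Bifidobacterium strain) were added together, so no single component can be told apart. The unit of every level is the log2 ratio of the rat's Cy5 signal to the reference's Cy3 signal, as the sample labels give the dyes for all rats. The methods also put the BD rats in Cy5 but the control rats in Cy3, and name no dye for the reference. Between a CD and a BD array the Pearson r of the ratios over 18735 probes was above 0 in 120 of 121 pairs, with a median of 0.316, and was -0.042 at the lowest. In whole liver, fewer cells of a type and less RNA per cell cannot be told apart.

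Acyl-CoA thioesterases work beside the acyl-CoA synthetases, which run the opposite reaction, and the pair sets how much activated fatty acid each compartment of the cell holds. Acot1 is the cytosolic and Acot2 the mitochondrial enzyme for long-chain acyl-CoA, Acot3, Acot4 and Acot8 act in peroxisomes, Acot7 is a cytosolic enzyme most abundant in brain, Acot12 splits acetyl-CoA in the liver cytosol, and Acot13 is a small thioesterase associated with mitochondria. In rodent liver several of these genes are known targets of PPARalpha, the nuclear receptor that fatty acids and fibrates activate.

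Acot2, Acot1, Acot4 and Acot3 lie side by side on rat chromosome 6 and arose by duplication, so the probe sequences are shown to let a reader see how far they tell the neighbours apart. The capitals mark the longest run of bases that each probe shares with a probe of another Acot gene. Positions are those the array annotation gives for the rat build rn4, all on the plus strand, chr6:108049691-108049750 for Acot1, chr6:108023141-108023200 for the dimmer of both Acot2 probes, chr6:108094199-108094258 for Acot3 and chr6:108079546-108079605 for the second Acot4 probe.
Acot1: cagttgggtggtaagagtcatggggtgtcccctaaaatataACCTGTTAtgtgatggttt
Acot2: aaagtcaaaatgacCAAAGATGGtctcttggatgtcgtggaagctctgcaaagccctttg
Acot3: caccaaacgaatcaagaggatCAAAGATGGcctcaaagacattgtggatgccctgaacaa
Acot4: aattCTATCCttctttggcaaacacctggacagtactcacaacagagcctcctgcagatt
For the printed probes the longest shared run was 9 bases, between the Acot2 and Acot3 probes, which matched at 32 of 44 aligned positions. The brighter Acot2 probe, not printed, shared a run of 10 bases with the Acot9 probe. The Acot1 probe shared at most 8 bases in a run, with the Acot5 probe. The probes lie at different positions of their transcripts, so runs shared between probes cannot show whether a probe tells neighbouring transcripts apart. Whether a probe also captures the transcript of a neighbouring gene was not tested.

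Before the levels, a few facts on the arrays bear on them. The share of spots that stood clear of background in Cy5 was 52.4% to 93.6% by array. On 2 arrays, CD 3 rat 1 and CD 14 rat 1, 4.44% and 4.05% of spots were flagged as non-uniform, against at most 0.063% on the other arrays. The arrays lay on 5 slides, here A to E, with both diets together on slide A (2 BD 3 and 1 CD 3), slide D (3 BD 3 and 3 CD 14) and slide E (6 BD 14 and 2 CD 14). Slide B held 3 CD 3 arrays, and slide C held 1 CD 3 and 1 CD 14 array. The diets at 3 months thus met only on slide A, with 1 CD 3 array, and those at 14 months only on slide E, with 2 CD 14 arrays. For the other arrays, diet and slide cannot be told apart within a time. For each of the 8 genes the main probe stood well above background in every rat, and none was saturated. The labels name the tissue as liver, and the 8 hepatocyte markers were likewise detected in every rat.

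Acot1 was the gene of the family with the widest gap between diets. In CD 3 its log2 ratio was -1.49, -1.59, -2.90, -2.07 and -1.69 in rats 1 to 5. In BD 3 it was 0.42, 1.53, -0.37, 1.40 and -0.01. Every BD 3 rat lay above every CD 3 rat, with the nearest values at -0.37 and -1.49. In CD 14 the lowest, median and highest values were -3.85, -2.77 and -0.74, and in BD 14 they were -1.78, 1.04 and 2.04. The groups at 14 months overlapped, because BD 14 rat 2 (-1.78) lay below CD 14 rat 1 (-0.74). The other 5 BD 14 rats lay above all CD 14 rats, and the other 5 CD 14 rats lay below all BD 14 rats. The family had been chosen on the account that Acot1 separates the diets at both times, and these values show full separation at 3 months and overlap at 14 months.

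**Figure D1:**
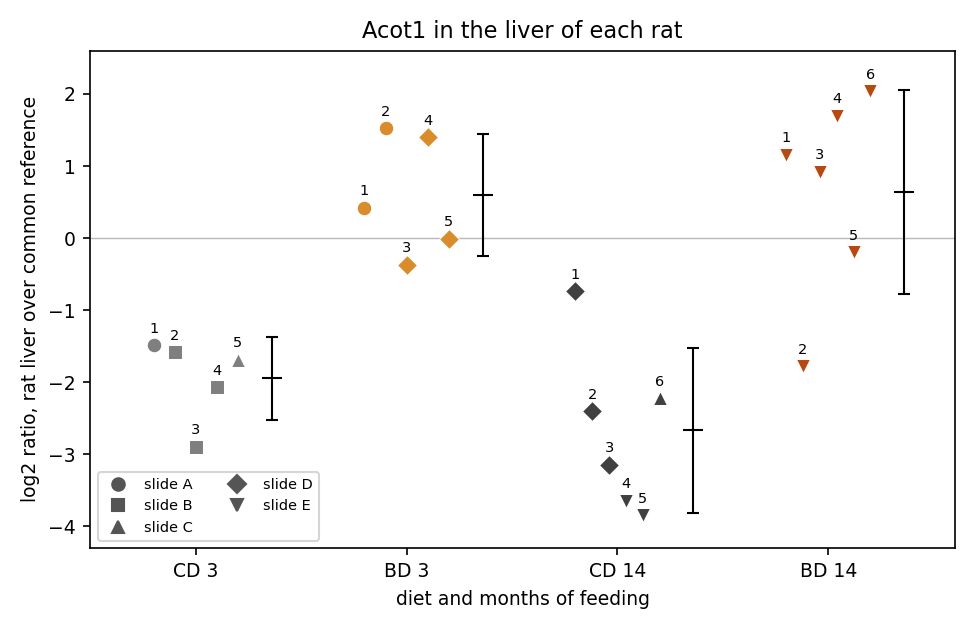
Acot1 in each rat, with diet and months of feeding on the horizontal axis and the log2 ratio of rat liver to the common reference on the vertical axis. Points are rats with their number, symbols are slides, and bars are group mean ± SD. BD 3 lies wholly above CD 3, and BD 14 rat 2 at -1.78 is the single BD rat below a CD 14 rat.

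Acot1 averaged -1.95 ± 0.57 (SD, n = 5) in CD 3 against 0.59 ± 0.84 (n = 5) in BD 3. At 14 months the averages were -2.67 ± 1.15 (n = 6) for CD 14 and 0.64 ± 1.41 (n = 6) for BD 14. The difference between diets was 2.54 (SE 0.63) at 3 months, a 5.82-fold ratio, and 3.31 (SE 0.58) at 14 months, a 9.89-fold ratio. Among the 19425 probes tested, these differences ranked 7 from the highest at 3 months and 1 at 14 months. Acot1 was chosen on this difference, so its high ranks follow from the choice and are a description. With the dyes the other way round on every array, the sign of each difference would turn and the same ranks would count from the lowest. The second difference, the 14-month less the 3-month one, was 0.76 (SE 0.86). For comparison, every BD array lay above every CD array for 0.476% of all probes at 3 months and for 0.657% at 14 months, shares from which nothing is read here since Acot1 was chosen by this contrast.

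The gap in Acot1 lay in the rats' own channel. The log2 Cy5 signal averaged 7.82 in CD 3 and 10.4 in BD 3, while the log2 Cy3 signal of the reference on the same arrays averaged 9.76 in both groups. At 14 months the Cy5 means were 7.60 in CD 14 and 11.0 in BD 14, beside Cy3 means of 10.3 in both. The probe was printed 10 times on each array, and the median SD between these spots was 0.072 on the log2 scale, with a highest value of 0.29. That spread between spots is smaller than the SD between rats in each group.

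On each slide that carried both diets, all BD rats lay above all CD rats for Acot1. On slide A the lowest BD 3 rat was at 0.42 and the CD 3 rat at -1.49. On slide D the lowest BD 3 rat was at -0.37 and the highest CD 14 rat at -0.74, a comparison of different feeding times. On slide E the lowest BD 14 rat was at -1.78 and the higher of the CD 14 rats at -3.65. With the slide as a block the diet difference was 2.26 (SE 0.98) at 3 months and 4.39 (SE 0.81) at 14 months. Without both arrays of many non-uniform spots, which include the high CD 14 rat, it was 2.66 (SE 0.62) and 3.69 (SE 0.56).

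The differences with time on 1 diet come from the same 4 group means of Acot1 as the diet contrasts that chose it, so they are given without a test. CD 14 was lower than CD 3 by a difference of -0.72 (SE 0.61), and BD 14 differed from BD 3 by 0.04 (SE 0.61). The first is larger than the SD of CD 3 (0.57) and smaller than that of CD 14 (1.15).

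Acot2, which releases fatty acids inside mitochondria, had the highest Pearson r with Acot1 among the members (0.701), a value that includes the diet contrast. With its brighter probe (chr6:108024282-108024341) the log2 ratio in CD 3 was -0.75, -0.61, -1.02, -0.17 and -0.24, and in BD 3 it was -0.35, -0.54, 0.04, 0.68 and -0.39. These groups overlapped, with 2 BD 3 rats above all CD 3 rats. At 14 months the lowest, median and highest values were -2.56, -0.63 and -0.21 in CD 14 and -0.77, 0.02 and 0.75 in BD 14. There 5 of 6 BD 14 rats lay above all CD 14 rats and the exception was again rat 2. The difference was 0.44 (SE 0.38, limma adjusted p = 0.866) at 3 months and 0.97 (SE 0.35, unadjusted p = 0.0101, adjusted p = 0.930) at 14 months, a 1.96-fold ratio that did not pass after adjustment. Without CD 14 rat 3, the lowest, it was 0.65 (SE 0.28), and the 3-month difference was 0.25 without BD 3 rat 4.

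The second Acot2 probe, whose sequence is shown above, gave wider gaps at lower signal. Its mean log2 Cy5 signal was 6.68, and it was well above background on 21 of 22 arrays. Its log2 ratio was -1.65, -0.38, -2.96, -2.95 and -0.74 in CD 3 and -0.19, 0.06, -0.04, 1.29 and -0.98 in BD 3, so 4 of 5 BD 3 rats lay above all CD 3 rats. The lowest, median and highest values were -3.49, -1.77 and -0.50 in CD 14 and -1.36, 0.21 and 1.22 in BD 14. The differences were 1.76 (SE 0.63, adjusted p = 0.525 in limma) and 1.75 (SE 0.57, adjusted p = 0.894). Both Acot2 probes thus pointed to higher levels in BD at both times, by sizes that differed more than 1.5 times between the probes, and neither passed the adjusted test.

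Acot3, a peroxisomal thioesterase for long-chain acyl-CoA, had a single spot per array. Its log2 ratio was -0.30, 0.89, -0.39, -0.96 and -1.55 in CD 3 and 0.24, -0.03, -0.27, 0.56 and -0.72 in BD 3, with the highest value in a control rat. At 14 months the lowest, median and highest values were -2.38, -0.51 and -0.05 in CD 14 and -0.91, -0.11 and 1.03 in BD 14, and 3 BD 14 rats lay above all controls. The differences of 0.42 (SE 0.47, adjusted p = 0.903 in limma) and 0.87 (SE 0.43, adjusted p = 0.952) did not pass. The first ran from 0.14 without CD 3 rat 5 to 0.76 without CD 3 rat 2, with 0.27 without BD 3 rat 4, and the second was 0.56 without CD 14 rat 3.

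Acot4, the peroxisomal enzyme for succinyl-CoA and other dicarboxylic acyl-CoAs, did not share the 3-month gap. With its main probe (chr6:108079753-108079812) the ratio was -0.49, 0.37, -0.29, 0.44 and 0.22 in CD 3 and -0.07, -0.49, -0.24, 0.40 and -0.75 in BD 3, and the groups lay over each other. At 14 months the lowest, median and highest values were -2.77, -0.45 and 0.02 in CD 14 and -2.03, -0.03 and 0.86 in BD 14. The difference was -0.28 (SE 0.49, adjusted p = 0.943 in limma) and then 0.66 (SE 0.45, adjusted p = 0.952). Single rats moved the 14-month value, to 0.28 without CD 14 rat 3 and to 1.02 without BD 14 rat 2, and at 3 months it ran from -0.44 without BD 3 rat 4 to -0.15 without BD 3 rat 5. The second probe gave -0.16 (SE 0.45) and 0.74 (SE 0.41), and both probes had a Pearson r of 0.972 over the 22 arrays.

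The 4 members outside chromosome 6 had narrower gaps, as the plot of all members by rat shows. Acot7 (chr5:169501845-169501904) ranged from -0.77 to 0.30 over all rats, with diet differences of -0.13 (SE 0.17, adjusted p = 0.918 in limma) at 3 months and 0.27 (SE 0.15, adjusted p = 0.952) at 14 months. For Acot8 (chr3:155828210-155828269, minus strand), a peroxisomal enzyme of broad substrate range, the ratio ran from -0.81 to 0.25, and its differences were 0.21 (SE 0.19, adjusted p = 0.880) and 0.17 (SE 0.18, adjusted p = 0.952). Acot12 (chr2:22035147-22035206) ran from -1.19 to 0.82, with differences of -0.16 (SE 0.29, adjusted p = 0.944) and 0.47 (SE 0.27, adjusted p = 0.952). All of these groups overlapped between diets. With each rat left out in turn, the 14-month differences ran from 0.17 to 0.35 for Acot7, from 0.11 to 0.32 for Acot8 and from 0.31 to 0.64 for Acot12, the lowest ones without CD 14 rat 5, BD 14 rat 4 and CD 14 rat 3. The 3-month differences ran from -0.16 to -0.09 for Acot7, from 0.13 to 0.30 for Acot8 and from -0.29 to -0.10 for Acot12.

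Acot13 (chr17:47314223-47314282) was the member that followed Acot1 least. Its median was 0.14 in CD 3 and 0.42 in BD 3, and at 14 months 0.28 with the control and 0.25 with the enriched diet. The diet differences were 0.11 with a 95% interval of -0.39 to 0.60 at 3 months and -0.17 with an interval of -0.62 to 0.29 at 14 months (limma adjusted p = 0.957 and 0.956). The first ran from -0.04 without BD 3 rat 2 to 0.25 without CD 3 rat 4, and the second was -0.0061 without CD 14 rat 6.

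**Figure D2:**
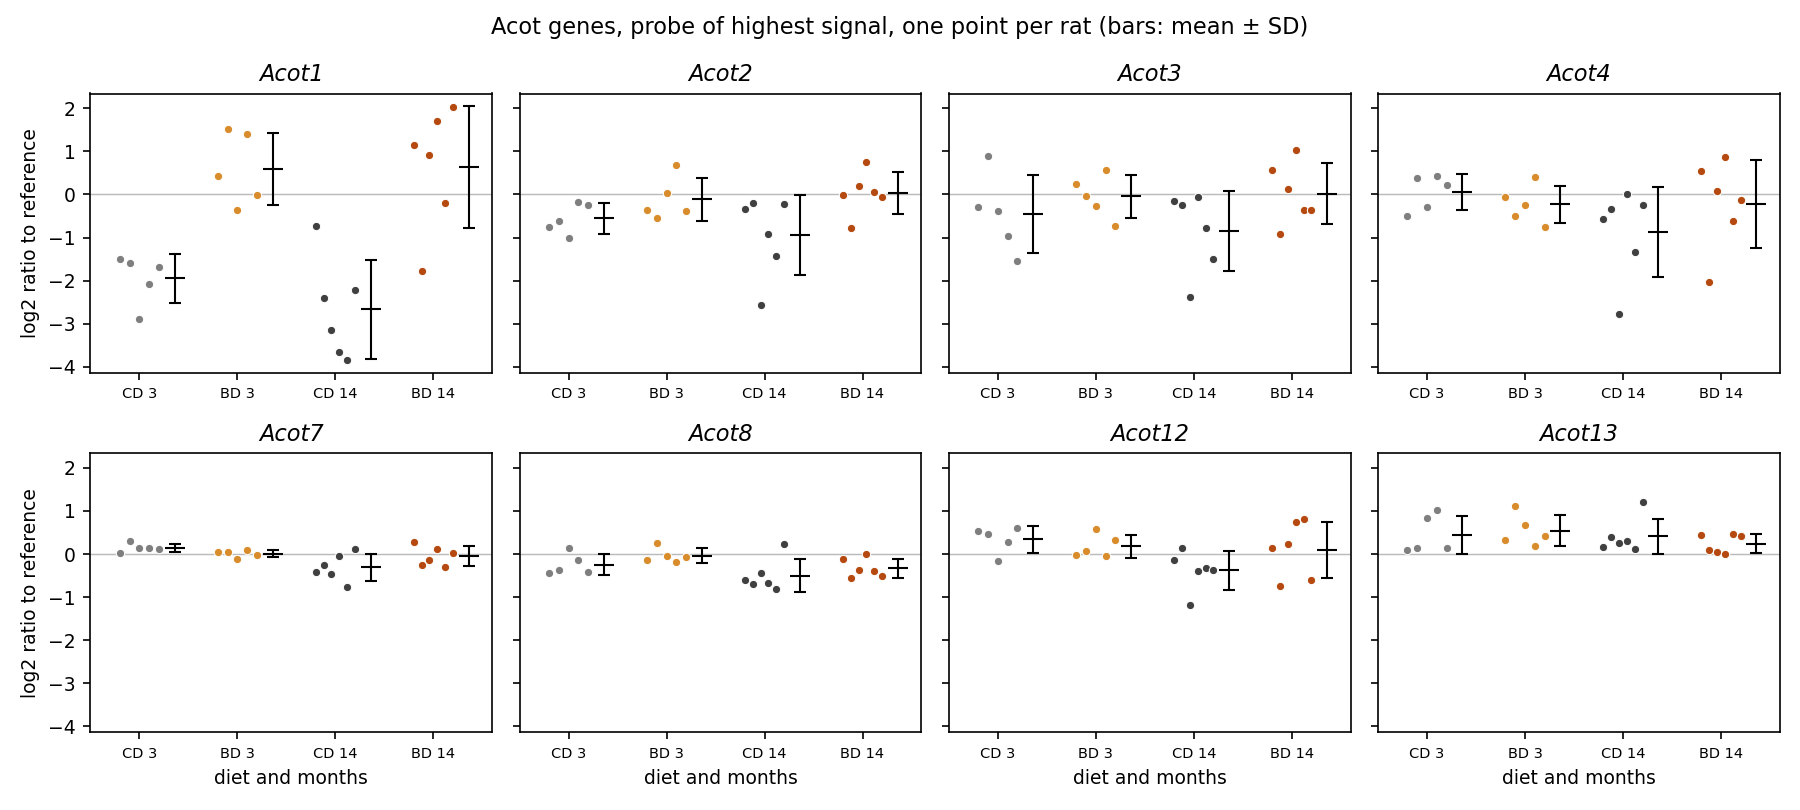
The 8 Acot genes on 1 common vertical axis, the log2 ratio to the reference of the brightest probe of each gene, by diet and months of feeding. Points are rats and bars are mean ± SD. Acot1 spreads from -3.85 to 2.04, and the lower row stays between -1.19 and 1.21.

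Counted over the family without Acot1, 4 of 7 genes were higher in BD 3 than in CD 3 and 6 of 7 were higher in BD 14 than in CD 14, the exception being Acot13. The median differences were 0.11 and 0.47, where the whole array had medians of 0.03 and 0.05. When each rat was left out in turn, the 3-month median ran from -0.04 without BD 3 rat 2 (3 of 7 higher) to 0.23 without CD 3 rat 4, and at 14 months it was 0.28 without CD 14 rat 3, with 6 of 7 still higher, and 0.64 at the highest, without BD 14 rat 2. With adjustment none of these 7 passed limma's test at either time, where 0% of all probes were called, nor did any with the F test and Tukey's test that the methods name. Before adjustment, p was under 0.05 for 0 of 7 genes at 3 months, against 7.11% of all probes, and for 1 of 7 (Acot2) at 14 months, against 4.59%. For the change of the diet difference with time, 0 of 7 passed with adjustment (0% of all probes) and 0 of 7 at an unadjusted p under 0.05 (4.79% of all probes).

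**Figure D3:**
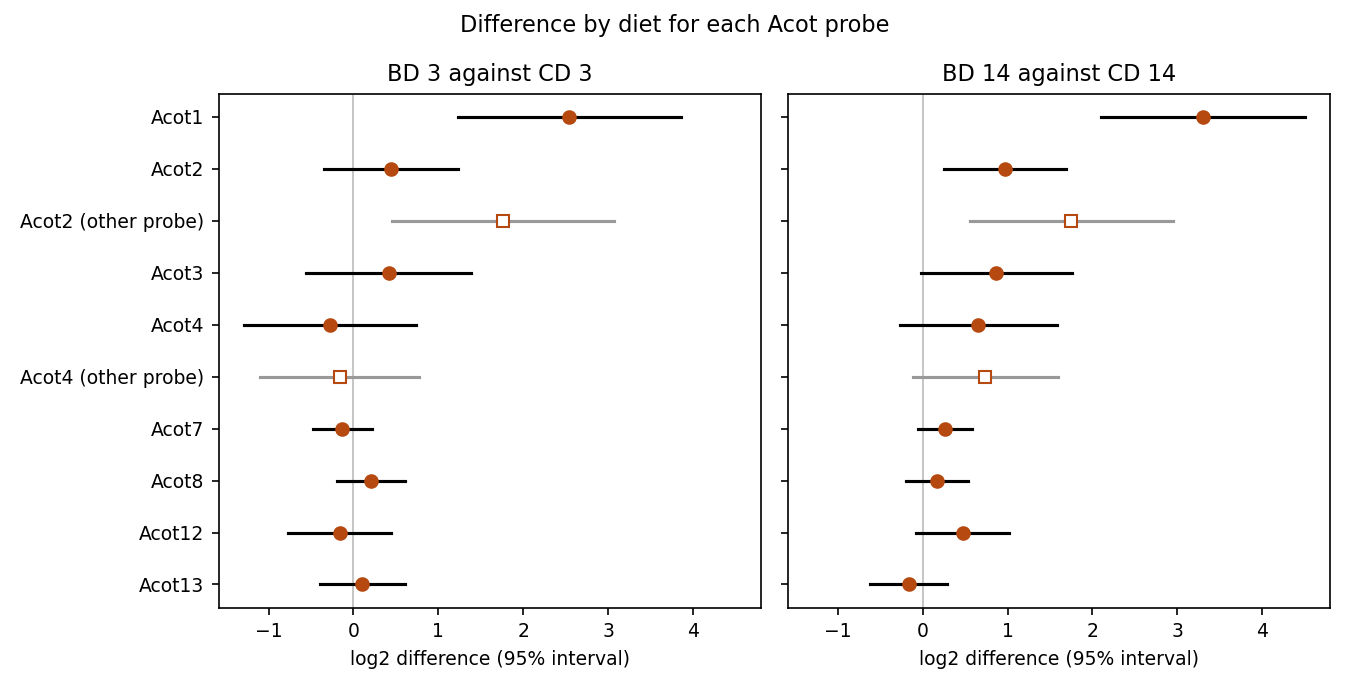
Difference between BD and CD on the log2 scale for all 10 Acot probes, at 3 months on the left and at 14 months on the right. Filled circles are the main probe of a gene, open squares its other probe, and lines the 95% intervals of the fit. Acot1 lies at 2.54 and 3.31, with intervals that only describe, since it was chosen on this difference. The intervals of Acot2 at 14 months and of its other probe at both times lie above 0, before any adjustment.

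With time on the control diet the means of the family were lower. Without Acot1, 7 of 7 genes had a lower mean in CD 14 than in CD 3, with a median difference of -0.39, beside 0.03 over all probes. None passed after adjustment (0% of all probes called by limma), and 2 of 7 had an unadjusted p under 0.05, Acot7 and Acot12, where the share of all probes was 10.1%. CD 14 rat 3 had the lowest value of all rats on the main probes of Acot2, Acot3, Acot4 and Acot12. By group medians Acot2 was nearly level, at -0.61 in CD 3 and -0.63 in CD 14. The median of Acot13 was higher in CD 14, at 0.28 beside 0.14, and those of the other members were lower. Acot7 had a difference of -0.45 (SE 0.16, adjusted p = 0.327) from a CD 3 range of 0.03 to 0.30 to a CD 14 range of -0.77 to 0.12. With the slide as a block that difference was -0.17 (SE 0.26), and on slide C, which held 1 array of each group and was the only slide they shared, it was -0.0069. Acot12 had one of -0.72 (SE 0.28, adjusted p = 0.380), against -1.09 (SE 0.50) in the slide-blocked fit and -0.98 on slide C. Over the same time all 7 Kupffer cell markers were at higher means in CD 14. Their median was 1.19, and 5 of 7 had an unadjusted p under 0.05. Of 6 adipocyte markers 3 were tested, Cfd, Fabp4 and Lpl, all higher, with a median of 1.17 and 2 at such a p. The others, Adipoq, Lep and Plin1, were too dim to test. The part of these markers in the values was not tested. From BD 3 to BD 14, 3 of the 7 genes were higher and 4 lower, with a median of -0.05, 0 adjusted calls (0% of all probes) and 0 at an unadjusted p under 0.05 (7.43% of all probes). All BD 14 arrays lay on slide E and no BD 3 array did, so slide and time cannot be told apart in BD rats.

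Several members were high or low in the same rats, on chromosome 6 and outside it. CD 14 rat 3 had the lowest of all 22 values on 5 of the 10 probes, the main Acot2 probe, Acot3, both Acot4 probes and Acot12. BD 14 rat 4 had the highest on 4 probes, the main Acot2 probe, Acot3 and both Acot4 probes. BD 14 rat 2, the low rat for Acot1, was the second lowest of all rats for Acot4 (-2.03) and Acot12 (-0.75). On the second Acot2 probe that rat was not low, at 0.07 and above every CD 14 rat, and the low BD 14 rats were rat 6 (-1.36) and rat 5 (-0.89). After the group means were taken off, Acot2 and Acot4 had a Pearson r of 0.845 over the 22 arrays, Acot3 and Acot4 0.676, and Acot2 and Acot3 0.485. Acot1 had 0.554 with Acot4, 0.518 with Acot2 and 0.391 with Acot3. Pairs of main probes with a member outside chromosome 6 spread more widely, from -0.256 for Acot3 and Acot13 to 0.725 for Acot8 and Acot13. High ones among them were 0.655 for Acot4 and Acot7, 0.629 for Acot2 and Acot12, and 0.544 for Acot4 and Acot12. Low ones were -0.101 for Acot12 and Acot13, -0.075 for Acot3 and Acot8, and 0.033 for Acot7 and Acot12. Acot1 and Acot13 had 0.0057. These values describe rats that share slides and the reference, and carry no test.

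The stretch chr6:108023141-108155388 holds 12 probes, of which 10 were tested, and it was looked at after the members' values were known. Beside the members it holds Acot5, with diet differences of -0.94 (SE 0.62, adjusted p = 0.818 in limma) at 3 months and 0.87 (SE 0.57, adjusted p = 0.952) at 14 months. An unnamed transcript, ENSRNOT00000039048 (chr6:108137400-108137456, minus strand), had 0.35 (SE 0.25) and 0.73 (SE 0.23, unadjusted p = 0.00496, adjusted p = 0.842). The probe for XM_234397, on the minus strand between Acot1 and Acot4, had -0.06 at both times (SE 0.18 and 0.17). An unnamed probe at chr6:108078014-108078073, also between Acot1 and Acot4 but on the plus strand and dim, had -0.50 (SE 0.56) and 0.87 (SE 0.51), and neither passed. Acot6 was well above background on 1 of 22 arrays and was not tested.

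By the Pearson correlation of log2 ratios over the 22 arrays, the 10 genes most like Acot1 out of 16467 compared had r from 0.698 to 0.762. In order they were Cyp4a1, which hydroxylates fatty acids at their last carbon, Aig1, a hydrolase of fatty acid esters of hydroxy fatty acids, Cyp17a1, a steroid hydroxylase, Chchd10, a mitochondrial protein, Paqr7, a membrane progestin receptor, Acot2, the transcript ENSRNOT00000039048 from the same stretch of chromosome 6, Cpt1a, the entry enzyme of mitochondrial beta-oxidation, Ehhadh, a peroxisomal beta-oxidation enzyme, and Ech1, an auxiliary beta-oxidation isomerase. Of these, 4 were on the list of PPARalpha-regulated genes described next. Cyp4a1, the first of them, averaged -1.23 ± 0.72 in CD 3 against -0.30 ± 0.31 in BD 3, and -1.48 ± 0.82 in CD 14 against -0.54 ± 0.64 in BD 14 (SD, n = 5 and 6). Among the members the order of r with Acot1 was Acot2 at 0.701 (rank 6), Acot3 at 0.559, Acot4 at 0.446, Acot7 at 0.397, Acot8 at 0.392, Acot12 at 0.332 and Acot13 at -0.046. The diet contrast chose Acot1 and is itself part of each r, so the order describes these rats and has no test.

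**Figure D4:**
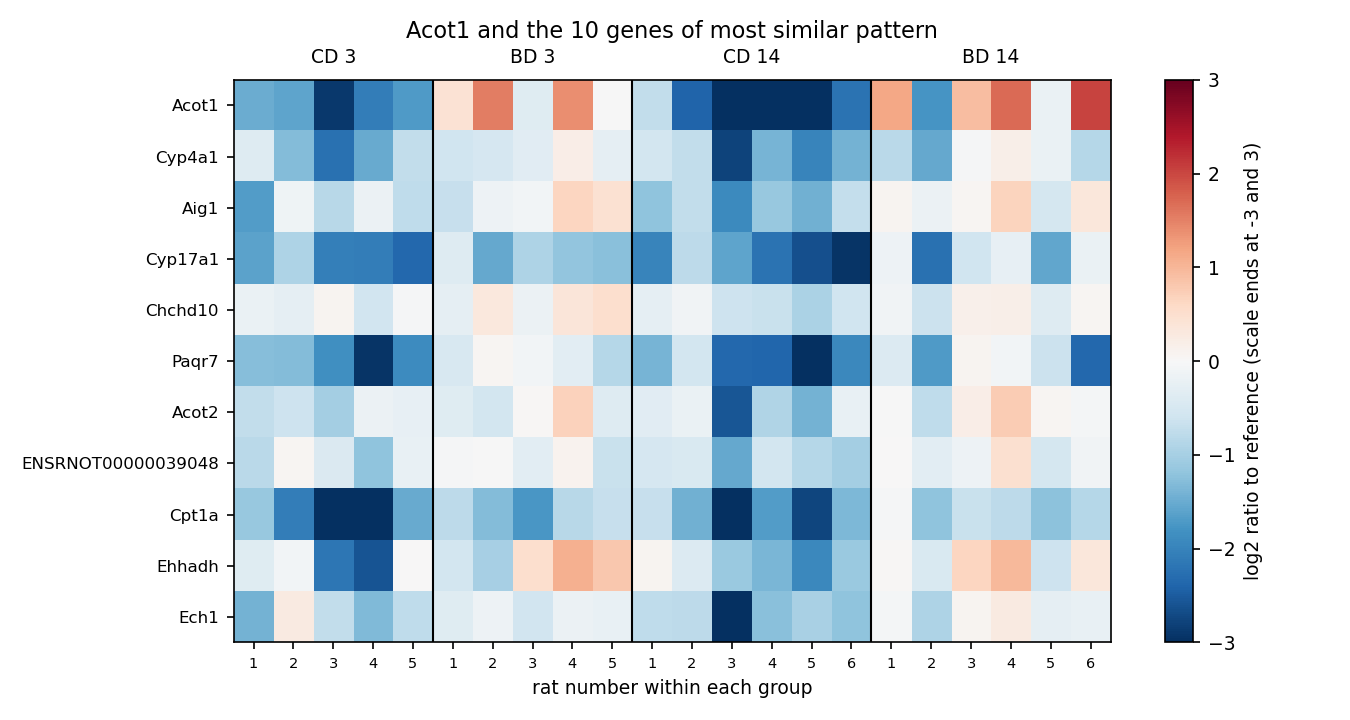
Log2 ratio to the reference, as colour, of Acot1 and the 10 genes with the highest Pearson r to it, in rows, for each of the 22 rats, in columns by group. The CD 14 columns are blue in nearly all rows, in shades that differ by gene, and lowest for Acot1 in rat 5 (-3.85). The BD 14 column of rat 2 is bluer than its neighbours in Acot1, Cyp4a1 and Cyp17a1.

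The genes that PPARalpha is known to regulate in the handling of fatty acids were mostly at higher means in BD. Of 44 such genes 42 were tested. At 14 months 40 of 42 were higher in BD 14, with a median difference of 0.58 beside 0.05 over all probes, and 18 had an unadjusted p under 0.05, all higher, against 3.79% of all probes in that direction and 0.803% in the other. At 3 months 33 of 42 were higher, with a median of 0.36 beside 0.03, and 6 had an unadjusted p under 0.05, all higher, against 4.99% of all probes higher and 2.12% lower. None passed limma's adjusted test at either time (0% of all probes). The list was drawn up with earlier results of these data known, so it is no independent evidence.

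At 14 months the list members with the smallest p were Cidec, a lipid droplet protein (1.26, SE 0.28, limma adjusted p = 0.396), Ech1 (1.15, SE 0.33, adjusted p = 0.725), Eci1, an enoyl-CoA isomerase of mitochondria (1.32, SE 0.39, adjusted p = 0.766), Crot, the peroxisomal carnitine octanoyltransferase (1.18, SE 0.35, adjusted p = 0.766), and Acaa1b, a peroxisomal thiolase (0.97, SE 0.32, adjusted p = 0.913). At 3 months Cidec again led (1.05, SE 0.31, adjusted p = 0.399), followed by Cpt1a (1.26, SE 0.48, adjusted p = 0.540), Fabp1, the liver fatty acid binding protein (0.65, SE 0.26, adjusted p = 0.599), Cyp4a1 (0.93, SE 0.40, adjusted p = 0.643) and Ehhadh (1.20, SE 0.52, adjusted p = 0.651). The list mean by rat was lowest in CD 14 rat 3 (-1.35) and lowest among BD 14 in rat 2 (-0.43).

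The count of 18 depended on single rats. Without CD 14 rat 3 it was 10 genes with a median of 0.42 (3.33% of all probes higher at such a p in that fit), without CD 14 rat 5 it was 10 with a median of 0.58 (3.55%), and without BD 14 rat 4 it was 10 with a median of 0.49 (3.20%). A fit that blocks on slide gave 6 genes and a median of 0.64 at 14 months (4.93% of all probes), while the 6 BD 14 and 2 CD 14 arrays of slide E alone gave 18 genes, 37 of 42 higher and a median of 0.64 (7.34%). At 3 months the slide block gave 1 gene (6.95% of all probes) and a median of 0.15, the same as over all probes in that fit (0.15). Without CD 3 rat 4 the 3-month count of 6 was 2 (3.51%), with 29 of 42 genes higher and a median of 0.13 in place of 0.36. That rat had the lowest mean of the 8 hepatocyte markers (-1.43) and the lowest share of spots clear of background (52.4%). The count was 3 without CD 3 rat 3 (4.46% of all probes) or without BD 3 rat 4 (4.35%), and 4 without BD 3 rat 5 (4.91%). It was 14 without CD 3 rat 2 (9.52%) and 10 on the Cy5 channel alone (10.2%), fits in which more of all probes were higher too.

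Other genes that make, bind or split acyl-CoA are read beside the same shares of all probes, 4.99% higher and 2.12% lower at 3 months, and 3.79% higher and 0.803% lower at 14 months. Of 25 synthetases and acyl-CoA binding proteins 22 were tested, with median differences of 0.09 at both times. At 3 months 2 were higher at an unadjusted p under 0.05, Acbd3, a Golgi protein with an acyl-CoA binding domain (1.73, SE 0.55, limma adjusted p = 0.438), and Acsl4, a synthetase for arachidonic acid (1.23, SE 0.48, adjusted p = 0.573), and 1 was lower, the bile acid and fatty acid transporter and synthetase Slc27a5 (-0.56, SE 0.26, adjusted p = 0.684). At 14 months 1 of 22 was higher, Acss3, a mitochondrial short-chain synthetase (0.62, SE 0.26, adjusted p = 0.952). Of 13 other acyl-CoA hydrolases 7 were tested, with medians of 0.14 and 0.39. Baat, which joins bile acids to amino acids, was lower in BD 3 (-0.54, SE 0.22, adjusted p = 0.620), and Hibch, a hydrolase of valine breakdown, was higher in BD 14 (0.62, SE 0.26, adjusted p = 0.952). None of these passed after adjustment.

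**Figure D5:**
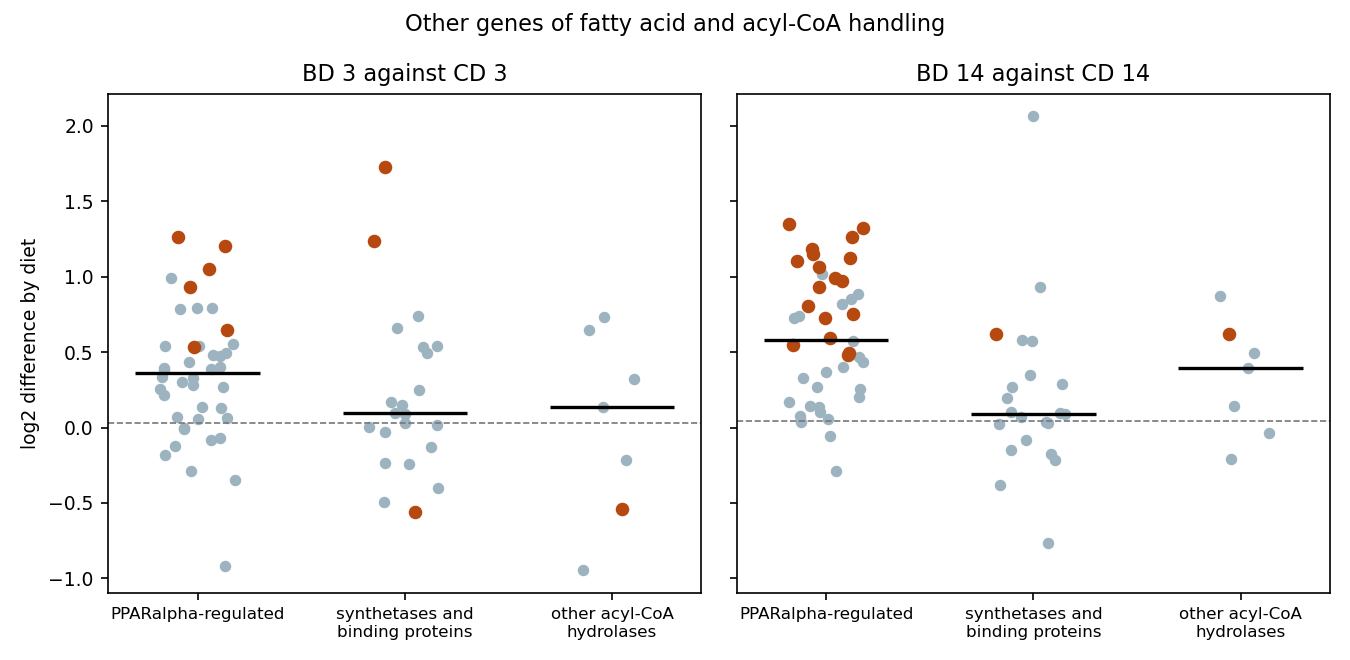
Difference between BD and CD on the log2 scale for 42 PPARalpha-regulated genes, 22 synthetases and acyl-CoA binding proteins and 7 other acyl-CoA hydrolases, at 3 months on the left and 14 months on the right. Each point is a gene, orange where the unadjusted p is under 0.05, black lines are list medians, and the dashed line is the median of all probes. At 14 months 40 of 42 PPARalpha-regulated genes lie above 0.

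Marker genes of other cells were also compared between diets, and none passed limma's adjusted test. Before adjustment, p was under 0.05 at 3 months for 2 of 5 red cell markers, both lower in BD 3 (2.12% of all probes), and for 2 of 6 stellate cell markers, both higher (4.99%), and at 14 months for 0 markers of any list. Named after their values were seen, they were Hbb, a haemoglobin chain (-1.19, SE 0.46, adjusted p = 0.585 in limma), Slc4a1, the red cell anion exchanger (-0.96, SE 0.44, adjusted p = 0.684), Reln, a secreted glycoprotein (1.16, SE 0.32, adjusted p = 0.399), and Pdgfrb, a growth factor receptor (0.63, SE 0.30, adjusted p = 0.684). All 5 red cell markers tested were lower in BD 3, with a mean ratio per rat between -2.48 and -0.47, beside -1.90 to -0.11 in CD 3. All 7 Kupffer cell markers were higher in BD 3, between -2.14 and -0.39, beside -2.88 to -0.62 in CD 3. At 14 months 5 of 5 red cell markers were lower (-1.95 to 0.07 in BD 14, -1.32 to -0.12 in CD 14) and 1 of 7 Kupffer cell markers was higher. None of the markers of either list was below background on all arrays. The 8 hepatocyte markers averaged -0.41 ± 0.63 in CD 3 against -0.15 ± 0.21 in BD 3, and -0.18 ± 0.34 in CD 14 against -0.15 ± 0.36 in BD 14. The median diet differences of the other marker lists at 3 and 14 months were 0.35 and 0.19 for stellate cells, -0.01 and 0.23 for bile duct, 0.21 and -0.36 for endothelium, 0.72 and -0.09 for adipocytes with 3 markers tested, and -0.78 and 0.14 for the 1 pancreas marker tested. The part of these shifts in the Acot results was not tested.

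The promoter sequences of the 8 genes were searched for the direct repeat to which PPARalpha binds as a pair with the retinoid X receptor, AGGTCA, 1 free base, AGGTCA, on both strands, with at most 1 mismatch outside the free base. In the RefSeq windows of build GRCr8, from 250 bases before to 50 after each gene start, 3 of 8 members held a match, Acot4, Acot8 and Acot12, beside 0.439% of 33469 promoters in all. The matches are printed with 8 bases on either side, in the direction of the repeat, and capitals mark the repeat. They lie at chr6:109399833-109399861 for Acot4, chr3:173962190-173962218 for Acot8 and chr2:24721846-24721874 for Acot12, each on the minus strand.
Acot4: gcacagagAGGTCAGAGGTCTggcttctg
Acot8: cacgccagGGGTCAGAGGTCActgggtaa
Acot12: tgcttaggAGGTGAGAGGTCAgggtccta
The repeats begin 13, 22 and 105 bases before the gene starts. No such match stood in the window of Acot1, Acot2, Acot3 or Acot13, nor in either window of Acot7, which says only that these letters are not in these 300 bases. The genes with a match had diet differences of -0.28, 0.21 and -0.16 at 3 months and of 0.66, 0.17 and 0.47 at 14 months, none of which passed the test.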

How the data were processed

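The authors hybridised liver RNA of 22 rats to Agilent 2-colour arrays. Per the labels, Feature Extraction 10.7.3.1 gave the deposited processed intensity values in Cy5 (rat) and Cy3 (reference), background-subtracted and Lowess-normalized, and the deposited log10 ratio of both, while the file headers name a later version. The authors also deposited log2 values of entries that passed their own test, not used here. Log10 ratios were converted to log2, non-uniform spots left out, and the spots of a probe averaged. The detection filter kept 19425 probes for testing, those of which a share of 0.5 or more of the spots exceeded background clearly in Cy5 throughout 1 group or more. The small number of arrays limits precision here, and the part of signal over background in it was not tested. The 4 group means were fitted with limma 3.58.1 in R 4.3.3 with Benjamini-Hochberg adjustment over all tested probes at 0.05, and differences were taken as contrasts. A gene's main probe has the highest mean Cy5 signal. The fit was tested on simulated data. Alternatives were other background, scaling, filter, trend, weights, blocks, the methods' test, and leaving out arrays. Members and lists were chosen with earlier results of these data known. All members are named. Of the other fatty acid lists, genes with an unadjusted p under 0.05 between diets are named, at most 5 per list, direction and contrast, and of similar genes the 10 with the highest Pearson r. Labels tie 1 array to 1 rat. Sequences of promoters are from RefSeq.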

Additional observations from a re-analysis of the deposited data

Results flagged for a closer look

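In 2 of the 32 groups looked at (8 genes in 4 groups), 1 rat stood further from the others than Dixon's limit, where chance flags about 1 group in 20. Acot8 was 0.22 in CD 14 rat 6, with the next rat at -0.44. Acot13 was 1.21 in CD 14 rat 6, with the next rat at 0.40. No diet difference of either gene passed the test with this rat included, and Acot8 and Acot13 had a Pearson r of 0.667 over the 22 arrays.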

How the results depend on the processing

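The diet difference of Acot1 was higher in BD under every alternative tried, between 2.17 and 2.78 at 3 months and between 2.85 and 4.39 at 14 months. The count of members that passed the adjusted test, without Acot1 between diets and for diet by time, was 0 under every alternative, in all 5 comparisons except that the methods' test and the fits of only the 2 groups compared gave no value for diet by time. With the rat number as a replicate block, the difference of Acot1 was 2.54 (SE 0.60) at 3 months and 3.31 (SE 0.55) at 14 months, and no call changed. Equal rat numbers did not pair the arrays, since deviations of same-numbered rats of 2 groups correlated between -0.272 and 0.286. On the Cy5 channel alone 2 genes of the other fatty acid lists passed at 3 months, Cidec and Acss3, among 261 probes in all, where the ratios gave 0. For CD 14 against CD 3 the count of such genes was between 0 and 1 when each array was left out in turn, and the 1 was Acbd3 without CD 3 rat 5 (adjusted p = 0.0165), among 205 probes in all. The cause was not tested. Refits without CD 3 rat 1 and CD 14 rat 1, and those of the PPARalpha-regulated list and of single members without each array were chosen after seeing the data. Dim probes such as the second of Acot2 stand less far above background, and the part of that in their values was not tested.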

Other observations

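In control rats, several genes that make or bind acyl-CoA had higher means at 14 than at 3 months. Of the 22 tested synthetases and binding proteins, 13 had a higher mean in CD 14, and the list median was 0.05. An unadjusted p under 0.05 was found for 5, all with higher means in CD 14, where 10.1% of all probes had such a p in either direction. Named after their values were seen, they were Acbd3 (2.09, SE 0.52, limma adjusted p = 0.178), Dbi, the acyl-CoA binding protein (1.34, SE 0.44, adjusted p = 0.292), Acsl3 (1.05, SE 0.36, adjusted p = 0.322), Acsl5 (0.78, SE 0.28, adjusted p = 0.335) and Acsl4 (0.98, SE 0.46, adjusted p = 0.478). Acbd3 varied widely in CD 3 (-1.66 ± 1.89, SD, n = 5). In the PPARalpha-regulated list 9 of 42 genes had a higher mean in CD 14, with a median of -0.15, and p was under 0.05 for 1 higher gene, Fabp1 (0.73, SE 0.25, adjusted p = 0.314), and 1 lower gene, Acadvl, a mitochondrial acyl-CoA dehydrogenase (-0.54, SE 0.23, adjusted p = 0.434). Of the 7 other hydrolases p was under 0.05 for 1 higher gene, Ppt1, a lysosomal palmitoyl-protein thioesterase (0.71, SE 0.25, adjusted p = 0.331), and 1 lower gene, Baat (-0.50, SE 0.21, adjusted p = 0.425). Over the same time all 7 Kupffer cell markers were higher in CD 14, with a median of 1.19 and 5 of 7 at an unadjusted p under 0.05, and the part of these markers in the values was not tested.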
